A study of Homo sapiens with 5 samples.

Results

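The OAS family described here comprises 4 human genes, OAS1, OAS2, OAS3 and OASL, found by Ensembl gene ID among the 19936 genes of each library. LX-2 cells, an immortalised line labelled as human hepatic stellate cells, the main scar-forming cells of the liver, had been transfected for 48 h with control siRNA (sicontrol in the labels, libraries control 1 and 2) or with siRNA against LIX1L (siLIX1L 1, 2 and 3). All 5 libraries were therefore made from transfected cells, and no untransfected library is among them. LX-2 is 1 line, the sources used here give neither the number nor the sequence of the siRNAs, and nothing in the labels tells of separate cultures. The p-values therefore reflect how far these libraries spread, and that spread may be technical.

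OAS enzymes bind double-stranded RNA and then join ATP into short oligoadenylates with an unusual linkage (2-5A). These molecules start a response that slows protein synthesis and viral growth. OAS1, OAS2 and OAS3 are synthases with different numbers of repeats of the same catalytic unit. OASL has lost the synthase activity, carries ubiquitin-like repeats at its end and is known to enhance signalling by the RNA sensor RIG-I. Transcription of all these genes is induced by interferons through a STAT and IRF transcription factor complex, and their level is widely used as a sign of an interferon-like state.

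On the annotation whose gene spans match the deposited lengths (GENCODE 29, GRCh38), 3 of the genes form a cluster on the plus strand of chromosome 12. OAS1 (ENSG00000089127) lies at 112906777 to 112933222, OAS3 (ENSG00000111331) at 112938352 to 112973249 and OAS2 (ENSG00000111335) at 112978395 to 113011723. The gaps between them are 5.13 kb and 5.15 kb. OASL (ENSG00000135114) is on the minus strand of the same chromosome at 121019111 to 121039242, 8007 kb beyond OAS2. A long antisense gene, AC004551.1 (112907628 to 113017751, minus strand), overlaps OAS1, OAS3 and OAS2 in the annotation. It has no value here and strand information is not stated for these libraries, so its reads cannot be told apart from those of the 3 genes. The members are distinct enough in sequence to be counted apart by long exact matches: of the 30-base words in their annotated transcripts, 0.0396% in OAS1 and 0.0560% in OASL also occur in another member, and 0 of 6344 in OAS2 and 0 of 8264 in OAS3.

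Promoter sequences are shown because 3 of the genes were higher together and the family is known to be induced through interferon response elements. RefSeq's promoter table (GRCh38.p14) holds 2 of the 4 members, OAS1 and OAS3; OAS2 and OASL have no entry. The 250 bases before RefSeq's start of each gene, which in both lies inside the GENCODE span, are printed 5′ to 3′, with matches to the searched motifs in capitals: chr12:112906712-112906961 for OAS1 and chr12:112938224-112938473 for OAS3, both on the plus strand.
OAS1: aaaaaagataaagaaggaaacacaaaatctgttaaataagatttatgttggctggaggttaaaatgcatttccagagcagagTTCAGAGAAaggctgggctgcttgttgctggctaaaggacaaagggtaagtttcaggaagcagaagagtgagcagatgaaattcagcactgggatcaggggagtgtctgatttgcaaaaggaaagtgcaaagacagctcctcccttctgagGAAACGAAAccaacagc
OAS3: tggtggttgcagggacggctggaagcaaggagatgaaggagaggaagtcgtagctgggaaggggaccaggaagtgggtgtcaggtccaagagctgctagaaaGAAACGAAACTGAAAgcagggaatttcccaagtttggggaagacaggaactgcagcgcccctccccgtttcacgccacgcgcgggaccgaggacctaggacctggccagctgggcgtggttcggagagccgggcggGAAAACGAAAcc
Both strands were searched, from 250 bases before to 50 after the start, for the core of the interferon-stimulated response element (GAAA, any 2 bases, GAAA), for TTCNNNGAA, the gamma-activated sequence, and for GAAANGAAA, a form with 1 base between the repeats that was added after the sequences were seen. OAS3 held the response element core at 2 places, starting 143 and 12 bases before the start, and GAAANGAAA at 1 place, 148 bases before it, which overlaps the first of these. OAS1 held GAAANGAAA 17 bases before the start and TTCNNNGAA, a palindrome found on both strands, 168 bases before it, and did not hold the response element core. Of all 35116 promoters in the table, 3.57% hold the response element core, 7.66% TTCNNNGAA and 3.12% GAAANGAAA. These matches describe letters only, and binding was not measured.

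The libraries held 14856104 to 18294056 reads over genes, recovered from the deposited FPKM (reads per kilobase of gene, scaled by the library's reads). Levels below are RPM, reads per 1000000 of these totals, in which 3 reads, the upper limit that a count of 0 allows, are worth 0.164 to 0.202 RPM. LIX1L, the targeted gene, was 26.4 and 35.5 RPM in control 1 and 2 and 6.60, 7.08 and 3.65 RPM in siLIX1L 1, 2 and 3. The libraries siLIX1L 1 and 2 lay nearest to one another, with a biological coefficient of variation of 6.30%, against 22.1 to 40.8% in the other pairs and 34.6% between the controls. Mitochondrial genes took 2.24 and 3.35% of the reads in the controls and 1.08 to 1.29% in the siLIX1L libraries, and the part of this in the results was not tested. The 9 stellate and mesenchymal markers summed to 3239 and 8236 RPM in control 1 and 2 and to between 4805 and 5586 RPM in the siLIX1L libraries. COL1A1 made up most of each sum. Of the 8 markers tested in edgeR, 7 had a negative log2 fold change (median -0.68). Of these 8, 3 (COL1A2, THY1 and ACTA2) were lower in every siLIX1L library than in both controls, against 21.8% of the genes tested. ACTA2, smooth muscle actin, fell in edgeR (adjusted p = 0.0497), and the other 7 did not pass. DESeq2 called 2 of the 8 lower (COL1A2 and ACTA2), against 830 of 13334 genes. Of these markers COL1A1 was abundant in every library (1813 to 4815 RPM) while DES was at or near 0 (0 to 13 reads). Defining markers of other cell types were low: the summed level was 0.740 to 2.08 RPM for 5 macrophage and leukocyte markers, 1.08 to 3.38 RPM for 4 endothelial, 1.06 to 4.50 RPM for 4 epithelial and 1.52 to 6.45 RPM for 5 hepatocyte markers. Of the plasmacytoid dendritic cell markers, CLEC4C and LILRA4 had no read, and nearly all of the 32.1 to 36.3 RPM of that list came from TCF4, a widely expressed transcription factor. The part of these cell types in the results was not tested.

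OAS2 rose after LIX1L siRNA, OAS1 and OAS3 had higher levels in all 3 siLIX1L libraries than in both controls without passing the test, and OASL showed no difference between the group means. OAS2 went from 42.8 ± 9.15 RPM (SD, n = 2) to 278 ± 96.9 RPM (SD, n = 3). OAS3 was 132 ± 0.134 against 412 ± 184 RPM, OAS1 26.001 ± 13.9 against 71.9 ± 36.9 RPM and OASL 45.1 ± 18.1 against 45.7 ± 21.0 RPM (SD, n = 2 and n = 3). The test was limma on log2(FPKM + 1) over 6464 genes, with Benjamini-Hochberg adjusted p under 0.05 as the threshold. Of the 4 members 1 rose and 0 fell, against 0.743% and 1.13% of all genes tested (1.87% in either direction), and 3 were higher with groups that do not overlap, against 23.5% of all genes tested. EdgeR on the recovered reads also called 1 higher and 0 lower, against 0.384% and 0.507% (0.891% in either direction), and DESeq2 called 3 higher, against 6.32%. More cells expressing a gene and more RNA per cell cannot be told apart in these bulk samples.

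**Figure D1:**
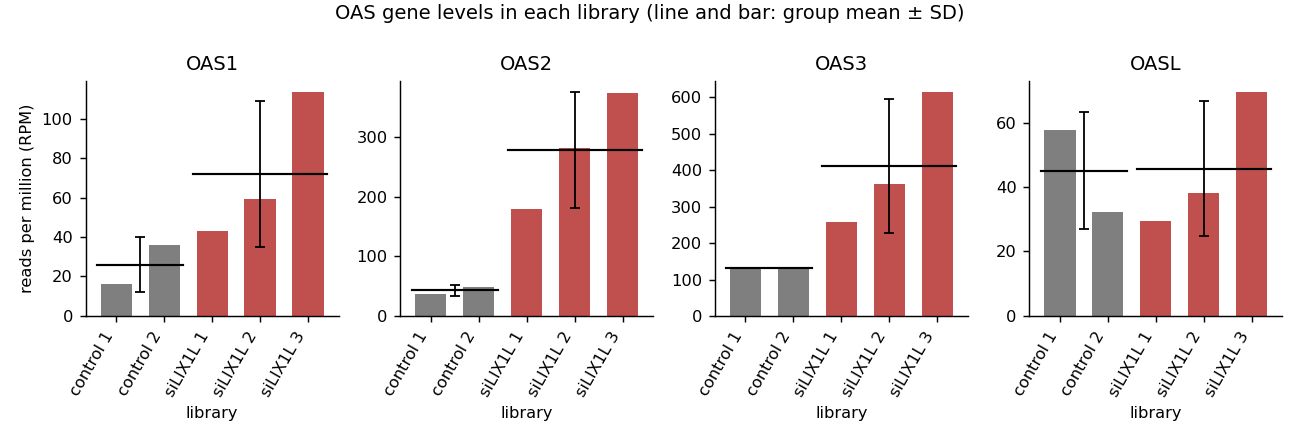
Level of OAS1, OAS2, OAS3 and OASL in RPM (y axis, linear, from 0) in each of the 5 libraries (x axis), grey for control siRNA and red for LIX1L siRNA; horizontal lines and error bars are group means ± SD (n = 2 and n = 3). The red bars stand above both grey bars for OAS1, OAS2 and OAS3, and the groups overlap for OASL.

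OAS2, a synthase found mainly as a dimer, had 36.4 and 49.3 RPM in control 1 and 2, and 179.7, 282 and 373 RPM in siLIX1L 1, 2 and 3. Its lowest siLIX1L library thus held 3.65-fold the level of its higher control, and the groups were far apart. These levels rest on 541 and 902 reads in the controls and 2670, 4255 and 6651 reads after LIX1L siRNA. The ratio of mean RPM was 6.497, the 7th highest of the 13026 genes with enough reads for edgeR. At log2(FPKM + 1), where changes of low genes come out smaller than they are, OAS2 was higher by 1.99 (SE 0.28, 95% interval 1.32 to 2.655, limma adjusted p = 0.0384). On the recovered reads edgeR gave a log2 fold change of 2.69 (adjusted p = 0.0435) and DESeq2 2.70 (SE 0.36, adjusted p = 6.78e-11). The direction held without any 1 library, but the limma call did not: the adjusted p was 0.0534 without control 2 and 0.137, 0.228 and 0.0715 without siLIX1L 1, 2 and 3, and it passed only without control 1 (adjusted p = 0.0333). With siLIX1L 1 and 2 averaged into 1 library the limma adjusted p was 0.175. In edgeR with 1 library left out, a setting added after seeing the data, the log2 fold change of OAS2 ran from 2.40 to 2.97. The edgeR call was also lost without siLIX1L 1, 2 or 3 (edgeR adjusted p = 0.0993, 0.209 and 0.0832).

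OAS3, the largest synthase and the main maker of 2-5A in several human cell lines, was the most abundant member by reads. It had 132 RPM in each control and 257, 363 and 614 RPM in siLIX1L 1, 2 and 3. The controls did not differ beyond counting error (ratio 1.0014, exact 95% interval 0.943 to 1.06) and every siLIX1L library was at least 1.94-fold above them. The ratio of mean RPM was 3.12, the 80th highest of 13026 genes. In limma the difference was 1.34 (SE 0.33, 95% interval 0.56 to 2.12) and missed the threshold (adjusted p = 0.0731). EdgeR likewise did not call it (log2 fold change 1.64, adjusted p = 0.0733), while DESeq2 did (1.65, SE 0.38, adjusted p = 5.55e-04). Here the spread lay among the siLIX1L libraries, of which siLIX1L 3 held 2.39-fold the level of siLIX1L 1.

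OAS1, the smallest synthase, had 16.2 and 35.8 RPM in control 1 and 2 and 42.9, 59.3 and 113 RPM in siLIX1L 1, 2 and 3. The groups did not overlap, but they nearly touched: siLIX1L 1 was 1.198-fold above control 2 (exact 95% counting interval 1.07 to 1.34), while control 2 itself was 2.21-fold above control 1. The ratio of mean RPM was 2.76 with both controls, 4.44 without control 2 and 2.01 without control 1. The limma difference was 0.87 (SE 0.32, 95% interval 0.10 to 1.63, adjusted p = 0.147). EdgeR gave a log2 fold change of 1.44 (adjusted p = 0.146) and DESeq2 1.47 (SE 0.48, adjusted p = 0.0243).

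OASL, the member without synthase activity, had 57.9 and 32.3 RPM in control 1 and 2 and 29.5, 38.1 and 69.4 RPM in siLIX1L 1, 2 and 3. The groups overlapped entirely, with siLIX1L 1 below both controls and siLIX1L 3 above both. The ratio of mean RPM was 1.01, which ranked 6102 of 13026 genes. The limma difference was -0.0048 with a 95% interval from -0.70 to 0.69 (adjusted p = 0.994), so changes of that size in either direction are within the error. Its sign depended on the library left out: the ratio of mean RPM was 1.41 without control 1, 0.789 without control 2 and 0.750 without siLIX1L 3. Control 1 differed from control 2 in opposite directions in OAS1 (2.21-fold lower) and OASL (1.79-fold higher).

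The difference from control was not of equal size in the 3 siLIX1L libraries. Against the pooled reads of both controls, OAS2 was 4.13-fold higher in siLIX1L 1 (exact 95% interval 3.87 to 4.41), 6.48-fold in siLIX1L 2 (6.10 to 6.88) and 8.58-fold in siLIX1L 3 (8.11 to 9.09). OAS3 was 1.95-fold (1.86 to 2.03), 2.75-fold (2.65 to 2.87) and 4.66-fold (4.50 to 4.82) higher. These intervals come from read counts without molecular identifiers and cover counting error only, and all 3 ratios share the same controls. OAS1 was 1.59-fold (1.43 to 1.76), 2.20-fold (1.9998 to 2.41) and 4.20-fold (3.88 to 4.55) higher. OASL was at 0.674 (0.604 to 0.750), 0.871 (0.790 to 0.960) and 1.59 (1.47 to 1.71) of the pooled controls. All 4 members were therefore lowest in siLIX1L 1 and highest in siLIX1L 3 among these libraries, OASL included. Of the 13026 genes edgeR tested, 3200 were lowest in siLIX1L 1 and 4869 were highest in siLIX1L 3. Only siLIX1L 3 was deposited with a read count and a gene length, a format unlike that of the other libraries. The labels name no batch, and the part of a batch in these differences was not tested.

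**Figure D2:**
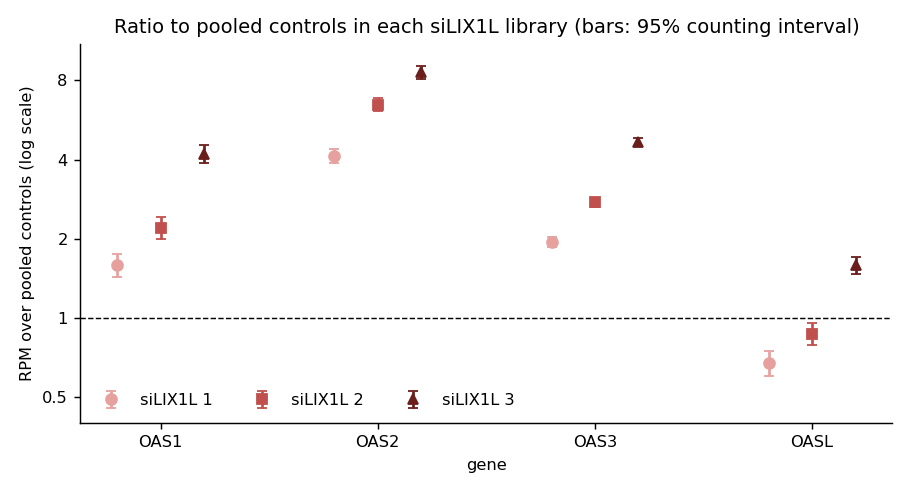
Ratio of RPM in each siLIX1L library to the pooled reads of both controls (y axis, log scale; dashed line at 1) for the 4 OAS genes (x axis); symbols mark siLIX1L 1, 2 and 3 and bars are exact 95% counting intervals. OAS2 runs from 4.13 to 8.58 and OASL from 0.674 to 1.59, across the line.

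Between the libraries themselves, siLIX1L 3 exceeded siLIX1L 1 by 2.08-fold in OAS2 (exact 95% counting interval 1.99 to 2.17), 2.39-fold in OAS3 (2.31 to 2.48), 2.65-fold in OAS1 (2.42 to 2.90) and 2.36-fold in OASL (2.11 to 2.63). The synthase with the largest ratio to control, OAS2, thus had the smallest spread between those libraries. Even siLIX1L 2, which was close to siLIX1L 1 over all genes, held 1.29 to 1.57 times its level of the 4 members. LIX1L was lowest in siLIX1L 3, at 0.553 of its level in siLIX1L 1 (0.398 to 0.765), and did not differ between siLIX1L 1 and 2 beyond counting error (1.07, 0.809 to 1.43). With single libraries there is no replicate of these ratios, and the part of the remaining LIX1L in them was not tested.

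Levels of different genes were compared per kilobase of the longest annotated transcript, 2416 bases in OAS1, 4734 in OAS2, 6719 in OAS3 and 3266 in OASL. The level summed over the family was 51.7 and 54.8 RPM per kb in control 1 and 2 and 103, 149.8 and 239 RPM per kb in siLIX1L 1, 2 and 3. OAS3 made up 36.9 ± 1.46% of this sum in the controls (SD, n = 2) and 37.2 ± 1.12% after LIX1L siRNA (SD, n = 3), a difference smaller than the spread between libraries. The share of OAS2 was 16.9 ± 2.94% against 36.6 ± 3.34%, with no overlap of the groups. OASL held 34.3 and 18.1% in control 1 and 2 and 8.77, 7.79 and 8.91% in the siLIX1L libraries, also without overlap. The level of OASL itself was 13.8 ± 5.54 RPM per kb in the controls and 14.0 ± 6.44 after LIX1L siRNA. Its smaller share thus came with a larger family sum. OAS1 held 20.01 ± 9.96% and 17.8 ± 1.71%, with the 2 controls on either side of the siLIX1L libraries (13.0 and 27.1%). In the controls the order of mean levels was OAS3, OASL, OAS1 and OAS2, of which the last 3 did not differ beyond their spread. After LIX1L siRNA the means were 61.3 ± 27.3 RPM per kb in OAS3, 58.8 ± 20.5 in OAS2, 29.8 ± 15.3 in OAS1 and 14.0 ± 6.44 in OASL. Within every siLIX1L library OAS3 and OAS2 were both above OAS1, and their own order differed between libraries. OAS1 was above OASL in each of them (17.7, 24.6 and 47.0 against 9.03, 11.7 and 21.3 RPM per kb in siLIX1L 1, 2 and 3). Across libraries the ranges of OAS3, OAS2 and OAS1 overlapped, as did those of OAS1 and OASL.

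**Figure D3:**
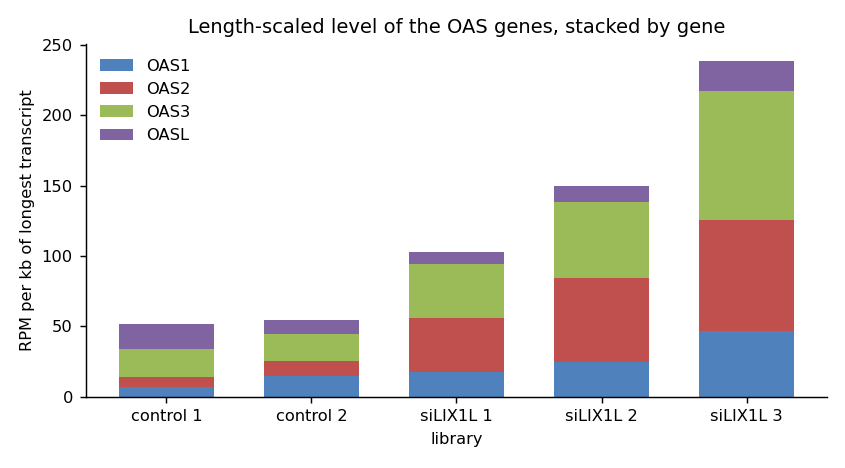
Level of the 4 OAS genes in RPM per kb of longest annotated transcript (y axis), stacked by gene in each library (x axis). The sum runs from 51.7 in control 1 to 239 in siLIX1L 3, and the part of OAS2 widens from 7.68 to 78.9 while that of OASL goes from 17.7 to 21.3.

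Ratios between members within a library do not depend on the library total. OAS2 per OASL read count was 0.628 and 1.53 in control 1 and 2, against 6.10, 7.39 and 5.38 in siLIX1L 1, 2 and 3. OAS2 per OAS3 was 0.276 and 0.373 against 0.700, 0.775 and 0.608, so this ratio was higher in each siLIX1L library than in both controls. OAS3 per OAS1 was 8.14 and 3.69 against 5.99, 6.13 and 5.42, where the groups overlapped. With 2 libraries against 3, the exact two-sided permutation test cannot go below p = 0.2. That value was reached by OAS2 and OAS3 each against OASL, by OAS1 against OASL, and by OAS2 against OAS3 and against OAS1 (5 of 6 ratios, each higher in 3 of 3 siLIX1L libraries than in both controls), and OAS3 against OAS1 gave exact p = 0.8. This test could therefore not pass the threshold for any of these ratios. The 6 ratios share the same 4 genes and are not independent. How many other pairs of genes separate the groups in this way was not computed.

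Of the other listed genes around the 2-5A molecules, ABCE1, PDE12 and AKAP7 are given as values, and 0 of these 3 passed in edgeR. ABCE1, a ribosome recycling factor, was 126 and 101 RPM in the controls and 152, 149.5 and 163 RPM after LIX1L siRNA (ratio 1.37, limma adjusted p = 0.162). PDE12, a phosphodiesterase that degrades 2-5A, was 112 and 47.7 RPM in control 1 and 2 and 109, 116 and 108 RPM in siLIX1L 1, 2 and 3 (limma adjusted p = 0.312), so control 2 alone stood apart. AKAP7, an anchoring protein with a domain of the same degrading activity, was 9.37 ± 0.811 against 7.91 ± 1.94 RPM (SD, n = 2 and n = 3; edgeR adjusted p = 0.628).

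The family was set beside 3 further lists of genes that sense double-stranded RNA or act in the interferon response, all chosen with earlier results known. Of 12 double-stranded RNA sensors and partners, 9 were tested in limma, of which 3 rose and 6 did not pass, against 0.743% of all genes risen. EdgeR called the same number higher, 3 of 11 tested, against 0.384% of all genes. The median log2 fold change of the list was 1.03, against 1.54 for the 4 OAS genes. TRIM25, a ubiquitin ligase of the RIG-I pathway, went from 81.5 ± 12.0 to 237 ± 20.7 RPM (limma adjusted p = 0.0384). ADAR, which edits adenosine to inosine in double-stranded RNA, went from 222 ± 37.4 to 610.3 ± 70.8 RPM (limma adjusted p = 0.0384). EIF2AK2, which encodes the kinase PKR, went from 109 ± 3.99 to 330.3 ± 66.4 RPM (limma adjusted p = 0.0394; SD, n = 2 and n = 3 in each). The counts fell to 0 without any 1 siLIX1L library in limma and edgeR, where no gene of the whole series was called higher either. Of the 11 sensors in edgeR 9 were higher with groups that do not overlap, against 22.2% of the genes tested. Among the siLIX1L libraries 8 of the 11 were highest in siLIX1L 3, against 37.4% of the genes tested. An unadjusted edgeR p under 0.05 was reached by 8 of the 11, against 3355 of all 13026 genes tested. DESeq2 called 7 of 11 sensors higher and 0 lower, against 6.32% of all genes higher.

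Interferon genes themselves were at or near 0. Of 9 listed ligands, 5 (IFNA2, IFNK, IFNL2, IFNL3 and IFNG) had no read in any library, and IFNA1 and IFNL1 had 0 or 1 read per library. IFNB1, named here after its values were seen, had 1 read in each control and 0, 2 and 3 reads in siLIX1L 1, 2 and 3, within the limit of 3 reads that a count of 0 allows. IFNE had 15 to 57 reads and its groups overlapped (1.01 and 3.12 against 1.92 to 2.89 RPM, limma adjusted p = 0.772). RNA was taken at 1 time, 48 h, so an earlier peak of these genes was not measured.

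Of 20 receptor and signalling genes 13 were tested in limma and 0 passed. Of these 13, 6 had an unadjusted p under 0.05, against 1785 of all 6464 genes tested. EdgeR called 0 of 18, with 6 at an unadjusted p under 0.05, against 3355 of all 13026 genes tested. DESeq2 called 3 higher and 2 lower of 19, against 843 higher and 830 lower of 13334 genes. USP18, a protease that removes ISG15 and damps interferon receptor signalling, was 8.33 and 9.89 RPM against 25.1, 35.8 and 54.0 RPM (ratio 4.20, limma adjusted p = 0.0655, edgeR adjusted p = 0.0542). Its groups did not overlap, with the lowest siLIX1L level in siLIX1L 1 and the highest in siLIX1L 3, as in the OAS genes.

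Among 42 other interferon-induced effectors (IFIH1, also a sensor, counted in both lists), edgeR tested 41, of which 1 rose and 40 did not pass. Of these 41, 26 had an unadjusted edgeR p under 0.05, against 3355 of all 13026 genes tested. DESeq2 called 19 of 41 higher and 0 lower, against 6.32% of all genes higher. The median edgeR log2 fold change of the 41 effectors was 0.82, and 24 were higher with no overlap, against 22.2% of the genes edgeR tested. The gene that rose in edgeR was SAMD9, an antiviral factor, at 171 ± 16.3 against 505 ± 97.2 RPM (limma adjusted p = 0.0384). Without control 1 edgeR called 10 of these genes higher, where it also called 10.8% of all 13402 genes tested higher instead of 0.384%. Without control 2 it called 0 of them, against 0.954% of all genes tested, and without any 1 siLIX1L library it called 0 of them and 0 genes in all as higher. Of the 41, 39 were highest in siLIX1L 3 among the siLIX1L libraries, against 37.4% of all genes edgeR tested. The median log2 ratio of the list to the control mean, at log2(RPM + 0.5), was 0.46, 0.75 and 1.24 in siLIX1L 1, 2 and 3, beside 0.83, 1.32 and 2.16 for the OAS genes. Over all genes edgeR tested it was -0.01, -0.03 and -0.06.

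**Figure D4:**
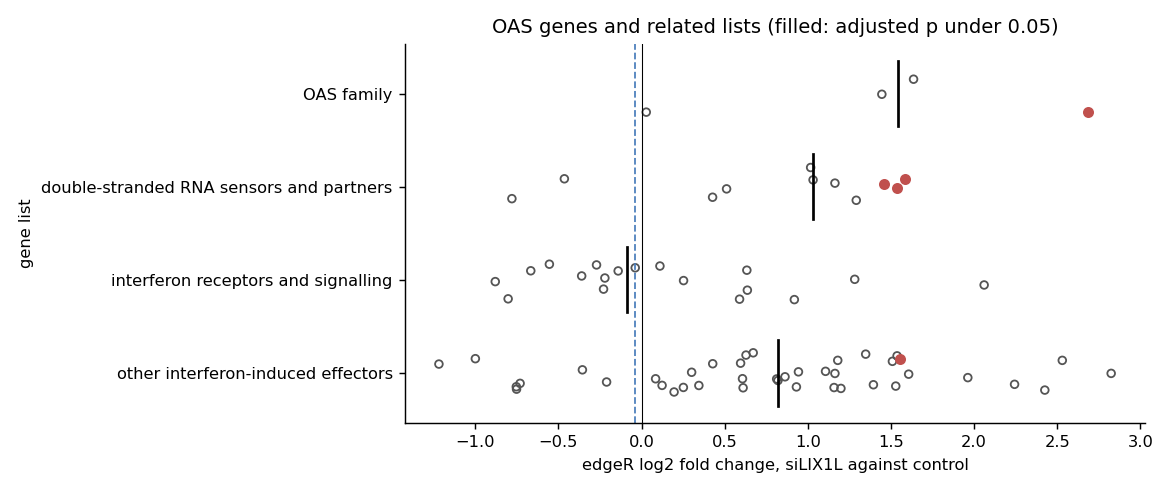
EdgeR log2 fold change of siLIX1L against control (x axis) for each tested gene of the OAS family and of 3 related lists (y axis, points spread vertically for view); filled red points have adjusted p under 0.05, black ticks are list medians and the blue dashed line is the median of all genes tested. The OAS median of 1.54 lies right of the other medians, and OASL at 0.03 lies apart from the other 3 members.

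The genes whose profile over the 5 libraries was most like the family were found by the Euclidean distance between centred log2(RPM + 0.5) profiles, taken against the mean profile of the 4 members. The 6 closest of the genes edgeR tested were HELZ2 (distance 0.215), TRANK1 (0.250), SP110 (0.268), MISP (0.330), PARP9 (0.358) and RIGI (0.366), with a median distance of 1.89 over all candidate genes. HELZ2, a helicase that acts with nuclear receptors, had 84.8 and 117 RPM in the controls and 174, 257 and 395 RPM in siLIX1L 1, 2 and 3. RIGI, the RIG-I sensor, had 43.0 and 36.8 RPM against 63.7, 91.5 and 138 RPM. MISP rested on 2 to 38 reads per library. Within the family OAS3 was nearest to the mean profile (0.202), followed by OAS1 (0.681), OAS2 (1.39) and OASL (1.71). The 6 closest genes were nearer to the mean profile than OAS1, OAS2 and OASL were. They had been picked for small distance among all candidates, so no conclusion is drawn from this order. The mean profile also joins unlike members, with OAS2 and OASL both far from it.

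Genes beside the OAS loci are given for comparison. PTPN11, which encodes the phosphatase SHP2 and lies 397 kb before OAS1, had 239 and 126 RPM in the controls and 77.5, 82.2 and 283 RPM in siLIX1L 1, 2 and 3 (limma adjusted p = 0.682). RPH3A, 7.90 kb before OAS1, had 8 to 13 reads per library, and DTX1 and RASAL1, beyond OAS2, had at most 2. Beyond OASL, the ATP receptors P2RX7 and P2RX4 were 9.35 ± 0.466 against 6.19 ± 0.690 RPM and 27.4 ± 5.22 against 17.5 ± 1.47 RPM (SD, n = 2 and n = 3). Both were lower without overlap of the groups, against 21.8% of the genes edgeR tested, and neither passed in edgeR (adjusted p = 0.197 and 0.115).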

How the data were processed

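RNA of LX-2 cells, 2 control siRNA and 3 LIX1L siRNA libraries, was made into libraries following Illumina, per the labels' protocols. The authors deposited FPKM for 19936 human Ensembl gene IDs per library, per the file headers, and for siLIX1L 3 also the raw read count and a gene length. Bowtie 0.12.2 and mm8 stand in the submitters' processing notes; mm8 is a mouse build that does not match the human IDs; counting tool, annotation and strand: not given in the sources used here. The lengths equal gene spans with introns in GENCODE 29 for 98.2% of the 19926 genes found there, so long introns lower a gene's FPKM. FPKM times length gave whole reads for 100% of values (tolerance 0.01 reads), equal to the deposited count in all 19936 genes of siLIX1L 3. Totals of 14856104 to 18294056 reads set the precision, and RPM is relative to them.

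Limma 3.58.1 in R 4.3.3 was the main test, on log2(FPKM + 1) and without covariates, for genes reaching 1 FPKM in 2 or more libraries; its moderated statistics used the trend and robust options, and two-sided p-values were adjusted by Benjamini-Hochberg at a threshold of 0.05. All 4 members passed this minimum. EdgeR 4.0.16, with TMM scaling and its quasi-likelihood test, and DESeq2 1.42.0 ran on the recovered reads as alternatives, beside other minimum levels, pseudocounts, scalings, a replicate block and each library left out. The limma and edgeR fits were tested on simulated data that had the same spread in every library. The libraries here spread unequally, by 6.30% between siLIX1L 1 and 2 and by 34.6% between the controls. The simulation therefore does not show how the fits behave on these libraries. The members and lists were chosen with earlier results of these data known. Named are the members, LIX1L, the downstream list, up to 5 genes past the threshold in each other list or else the 2 with the smallest edgeR p, the 2 nearest protein-coding genes on each side of each locus and the 6 closest profiles; others were named after their values were seen, and some genes under the rule are not reported here.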

Additional observations from a re-analysis of the deposited data

How the results depend on the processing

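OAS1, OAS2 and OAS3 were higher after LIX1L siRNA in each of the 14, 15 and 15 alternatives that tested them, and OASL changed sign in 7 of 14. OAS2 passed the threshold in 9 alternatives; it did not without the minimum level (difference 1.99, limma adjusted p = 0.107) or with siLIX1L 1 and 2 averaged (2.11, limma adjusted p = 0.175), where the cause was not tested. OAS1 passed with DESeq2 only (1.47), and OAS3 with DESeq2 (1.65) and with edgeR without a filter (1.66). The OASL difference was 0.028 with edgeR, 0.046 with edgeR without a filter, 0.038 with DESeq2 and 0.12 with siLIX1L 1 and 2 averaged. With 1 library left out in turn, the limma differences ran from 0.58 to 1.14 in OAS1, 1.77 to 2.24 in OAS2, 1.03 to 1.61 in OAS3 and -0.29 to 0.28 in OASL. The ratios of mean RPM ran from 1.97 to 4.44, 5.39 to 7.65, 2.35 to 3.71 and 0.750 to 1.41. In edgeR with 1 library left out, a setting added after seeing the data, OASL ran from -0.43 to 0.47.

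Limma called 121 genes in all, 48 higher and 73 lower. The count was 0 without the minimum level (3407 at an unadjusted p under 0.05) and with siLIX1L 1 and 2 averaged (953), 233 with quantile normalization, 514 with edgeR without a filter (116 with it) and 1673 with DESeq2. With 1 library left out it ran from 0, without any 1 siLIX1L library (882 to 1764 at an unadjusted p under 0.05), to 1517 without control 1; without control 2 it was 258. With the replicate number as a block, which leaves siLIX1L 3 without a partner, 94 genes passed, 21 of them higher. OAS2 still passed (difference 1.77, limma adjusted p = 0.0148). Deviations of same-numbered libraries from their group means were correlated at -0.12 and -0.10. The deviations of the 2 controls mirror one another, so these correlations cannot tell whether the numbers pair the libraries. Genes with few reads are limited by depth.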

Other observations

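Of 18 receptor and signalling genes tested in edgeR, 3 (IRF1, IRF3 and SOCS3) were lower after LIX1L siRNA with groups that do not overlap. So were 2 of 41 effectors (GBP1 and PSMB9). Over all genes edgeR tested, 21.8% were lower in this way, a larger share than in either list. The genes in these brackets were named after their values were seen. IRF1, a transcription factor that responds strongly to interferon gamma, was 65.4 and 66.3 RPM in the controls and 39.5, 36.1 and 38.7 RPM in siLIX1L 1, 2 and 3 (limma adjusted p = 0.0548, edgeR adjusted p = 0.0645). GBP1, a guanylate-binding protein, was 139.9 and 203 RPM against 86.3, 98.98 and 123 RPM (edgeR adjusted p = 0.133), and PSMB9, a subunit of the immunoproteasome, 40.4 and 67.6 RPM against 22.6, 22.6 and 36.8 RPM (edgeR adjusted p = 0.127). None of these 3 passed in limma or edgeR, and DESeq2 called IRF1 (adjusted p = 0.00605). IFI44L, another interferon-induced gene, had a higher ratio of mean RPM than OAS2, at 7.19, and passed in DESeq2 (adjusted p = 1.86e-07) but not in limma or edgeR (limma adjusted p = 0.0517, edgeR adjusted p = 0.0557).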
